A study of Mus musculus with 48 samples.

Results

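The comparison described here set mouse amygdala after fear conditioning (FC, 6 arrays) against amygdala of naive home cage animals (NH, 10 arrays), 16 of the 48 arrays of the study. Arrays were assigned to it by their labels, from the tissue and the arm code that opens each array title. The labels name no allele, drug or other agent for either arm, and they give no strain, sex, age or interval between session and dissection. The labels do not spell out the arm codes, which are read here from the title of the study, on associative and nonassociative learning; the remaining arm, CS (6 amygdala arrays), is read as the conditioned stimulus given alone. All arrays were labelled from total RNA of the tissue, so fewer cells of a type and less RNA per cell cannot be told apart. The long numbers in the titles of amygdala arrays can be read as pairs of animal numbers, but no label says whether an array pools animals or whether replicates are separate animals, so p-values measure the spread between these arrays only.

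The amygdala is the part of the forebrain in which a signal and an aversive event become associated, and it is needed to acquire and to express learned fear. When neurons fire strongly, calcium and MAP kinase signalling act on transcription factors already present in the cell, such as CREB and SRF, and within minutes these switch on immediate early genes without new protein synthesis. Many immediate early genes encode transcription factors (Fos, Jun, Egr and Nr4a families) that act on later genes, and others encode phosphatases that shut the MAP kinase pathway off again. In fear learning these transcripts are widely used as markers of recently active cells.

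Levels are log2 of the deposited array intensity, so equal steps are equal ratios. Levels of different probe sets cannot be compared with each other, since each probe set has its own brightness. The processing batch of each array is given in the labels. Batch 1 held 6 NH arrays and no other arm, batch 2 held 4 FC, 3 NH and 3 CS arrays, and batch 3 held 2 FC, 1 NH and 3 CS arrays. Differences between arms are therefore those within batches 2 and 3, from limma with batch as a block. The CS arrays of these batches were in the same fit and bore on FC minus NH as well. A fitted difference therefore need not lie between its batch 2 and batch 3 values. Differences are given with their standard error (±) and with p-values adjusted over the 7453 probe sets tested. A probe set passed when its adjusted p lay below 0.05.

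The arrays of the 22 amygdala samples resembled each other closely, with correlations from 0.987 to 0.998 over all probe sets and median intensities from 52.3 to 56.1. Arrays FC 21927A and CS 23139A stood furthest from their fitted values, with residual standard deviations of 0.178 and 0.167. The label of the tissue was checked against 13 amygdala markers, ranked by percentile within each array. In 4 of them (Tac2, Wfs1, Tac1 and Cdh13) no hippocampus array reached the lowest amygdala array. Rspo2 lay the other way and 8 markers overlapped. Of 10 markers of hippocampal neurons, 4 (Neurod6, Dsp, Prox1 and Lct) lay higher in every hippocampus array, Calb1 lay higher in every amygdala array and 5 overlapped.

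In the amygdala 7 genes passed as higher in FC than in NH, and all 7 are known immediate early or activity-induced genes. They were the AP-1 subunits Fos and Junb, the nuclear receptor Nr4a1, the zinc finger factors Egr1 and Egr2, the MAP kinase phosphatase Dusp1 and the stress-inducible signalling protein Gadd45g. Fos rose 2.89-fold, and the other genes rose between 1.23-fold (Gadd45g) and 1.45-fold (Dusp1). No gene fell. The 7 probe sets were 0.0939% of those tested. Without NH 28892A the count was 4. The count also depended on the model, with 192 higher and 19 lower probe sets when batch was left out of it and 621 higher and 290 lower with array weights. At an unadjusted p below 0.05 (limma), 302 probe sets (4.05%) were higher and 82 (1.1%) were lower, 5.15% in all. The median difference over all probe sets was 0.01, and 81.7% differed by less than 0.1 in either direction.

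**Figure D1:**
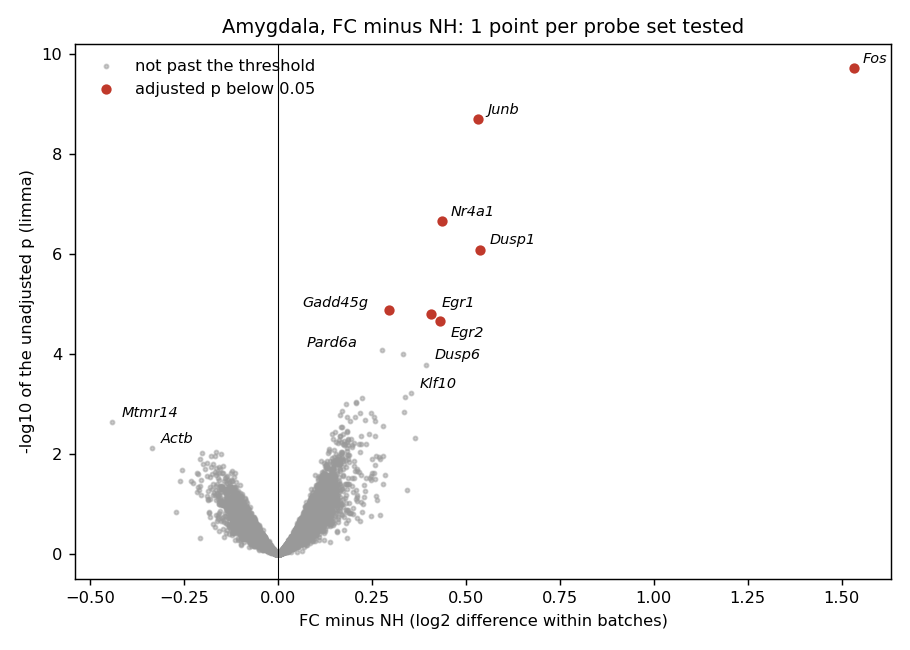
Each point is 1 of the 7453 probe sets, with the FC minus NH difference (log2, within batches) on the horizontal axis and -log10 of the unadjusted limma p on the vertical axis. The 7 red points passed at an adjusted p below 0.05, all on the higher side, and Fos lies apart from the rest at 1.53.

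Fos encodes the protein that pairs with Jun family members to form the AP-1 transcription factor. In FC its level was 6.65 at the lowest, 6.83 at the median and 7.04 at the highest, against 4.64, 5.33 and 5.58 in NH. The groups did not overlap: the dimmest FC array lay above the brightest NH array, and the spread was wider in NH, mainly among batch 1 arrays. The difference was 1.53 ± 0.146 (limma, adjusted p = 1.44e-06). It was 1.52 within batch 2 (4 FC and 3 NH arrays) and 1.51 within batch 3 (2 FC arrays and 1 NH array). Batch 1 held NH arrays only, so its 6 arrays did not move the FC minus NH difference, which was 1.53 without them too. A second Fos probe set was dim, at 3.98 to 4.33 in FC and 3.92 to 4.32 in NH. It overlapped between the groups and was not among the probe sets tested.

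Junb, an AP-1 subunit that can restrain or replace Jun, had the tightest FC values of the genes that rose. At its main probe set the level was 7.69, 7.74 and 7.80 at the lowest, median and highest in FC and 6.88, 7.11 and 7.31 in NH, so all FC arrays lay above all NH arrays. The difference was 0.53 ± 0.0573 (limma, adjusted p = 7.45e-06), with 0.52 in batch 2 and 0.57 in batch 3. The other Junb probe set ran from 7.39 to 7.74 in FC and from 7.03 to 7.50 in NH. It overlapped between the groups across batches but not within either batch, and its difference of 0.33 ± 0.0718 did not pass (limma, adjusted p = 0.0832). It passed without NH 299141A (0.0200), without CS 21523A (0.0464) and with batch as a random block (0.0279). It passed as well with no batch term (0.00832) and with array weights (2.68e-04), where many more probe sets passed.

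Nr4a1, an orphan nuclear receptor also called Nur77, needs no known hormone and is controlled through its own transcription. It lay at 6.81, 6.96 and 7.10 in FC and at 6.23, 6.44 and 6.61 in NH at the lowest, median and highest. No FC array fell into the NH range. Nr4a1 rose by 0.44 ± 0.0609 (limma, adjusted p = 5.44e-04), with 0.42 in batch 2 and 0.47 in batch 3. Its relative Nr4a2 (Nurr1, known for its role in dopamine neurons) lay at 5.28 to 5.52 in FC and 4.98 to 5.44 in NH. These ranges overlapped, and the difference of 0.19 ± 0.0803 did not pass (limma, adjusted p = 0.894).

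Egr1, also called Zif268, is a zinc finger factor long used in maps of neuronal activity. Its FC levels were 8.36, 8.53 and 8.62 (lowest, median, highest) and its NH levels 7.69, 8.01 and 8.15. The FC arrays lay above every NH array, and the lowest NH arrays were those of batch 1. The difference was 0.41 ± 0.0755 (limma, adjusted p = 0.0195) and was 0.40 in each of batches 2 and 3. A dim second probe set gave -0.20 ± 0.123 and was not among those tested. Egr2, a related factor also needed for myelin formation in peripheral nerve, lay at 5.50, 5.65 and 5.79 in FC and at 4.99, 5.29 and 5.35 in NH. These ranges did not touch either, with a difference of 0.43 ± 0.0820 (limma, adjusted p = 0.0231), 0.46 in batch 2 and 0.34 in batch 3.

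Dusp1 (MKP-1) removes phosphate from active MAP kinases and so helps to shut that pathway off again. It lay at 7.19, 7.38 and 7.50 in FC and at 6.55, 6.91 and 7.01 in NH. All FC arrays were above all NH arrays, and 1 batch 1 and 1 batch 2 NH array lay well under the others. Dusp1 rose by 0.54 ± 0.0818 (limma, adjusted p = 0.00151), with 0.53 in both batches. Gadd45g, which activates stress kinase signalling and is linked to active DNA demethylation, lay at 6.44, 6.49 and 6.61 in FC and at 6.05, 6.17 and 6.33 in NH. Its groups did not overlap, but the single NH array of batch 3 was the highest of all NH arrays. The difference was 0.30 ± 0.0543 (limma, adjusted p = 0.0195), 0.36 within batch 2 and 0.14 within batch 3. Over the table as a whole, every FC array lay above every NH array in 33 probe sets (0.443%); all 7 that passed were among them, as their test used the same values. Set against the NH arrays of its own batch only, this held for 151 probe sets (2.03%).

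**Figure D2:**
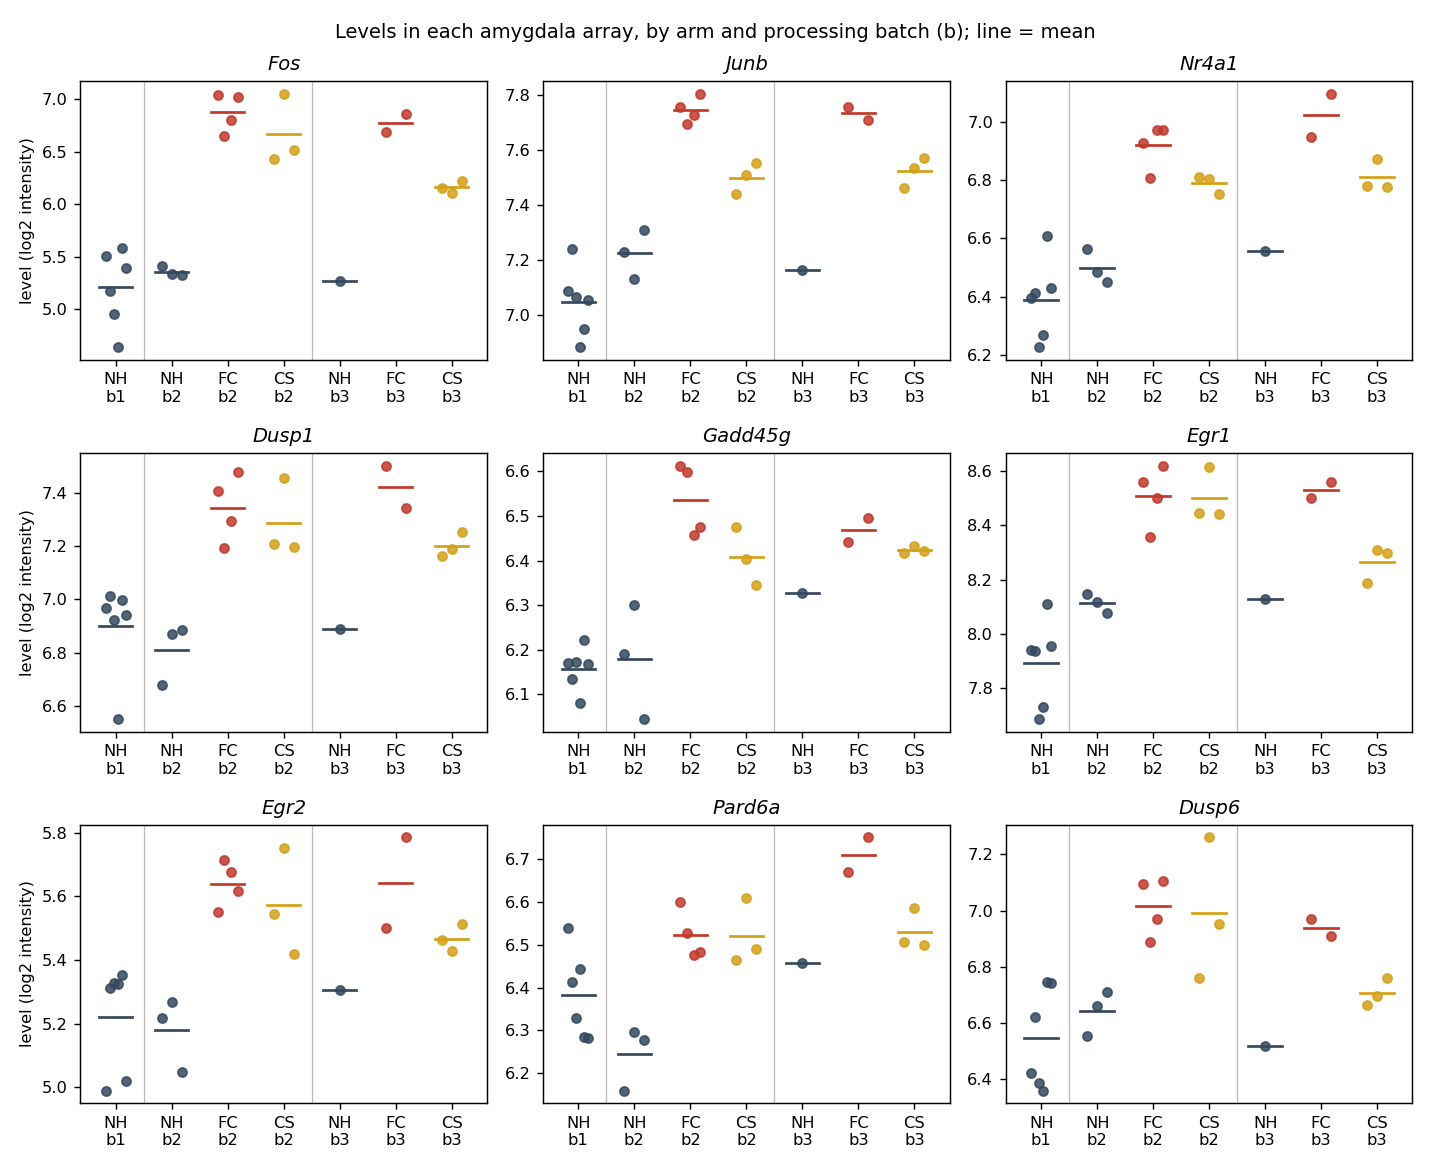
Each panel shows 1 probe set, with the log2 intensity of each array (points) and the mean (line) for each arm and processing batch (b1 to b3); vertical lines part the batches. For the 7 genes that passed, the FC points of batches 2 and 3 lie above all NH points, and the CS points lie above all NH points too; Pard6a and Dusp6 did not pass.

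The stability of the calls differed between the genes. Fos, Junb, Nr4a1 and Dusp1 passed in all 22 fits that left out 1 amygdala array. Gadd45g did not pass without FC 2103113A (limma, adjusted p = 0.0616), FC 21927A (0.0534), NH 28892A (0.0975) or NH 299141A (0.123). Egr1 did not pass in 7 of the 22 fits, with adjusted p from 0.0542 without FC 2103113A to 0.104 without NH 299141A; the others were FC 25589A (0.0653), FC 3144146A (0.0548), FC 3148150A (0.0715), NH 28892A (0.0975) and NH 29798A (0.0961). Egr2 did not pass in 7 fits either, with adjusted p of 0.0657 without FC 21927A, 0.0685 without FC 23543A, 0.0583 without FC 25589A, 0.0838 without FC 3148150A, 0.0975 without NH 28892A, 0.07 without NH 29798A and 0.14 without NH 299141A. Among the other alternatives, Gadd45g and Egr2 did not pass when the CS arrays were left out (0.0675 and 0.0574), nor Gadd45g without batch 1 (0.0876), nor Egr1 with its probe sets averaged (0.907). With each batch fitted alone, Fos passed in both batches and Junb in batch 2 but not in batch 3 (0.0653), and the other 5 genes passed in neither. With 1 array left out the differences moved from 0.24 to 0.34 for Gadd45g, 0.39 to 0.45 for Egr1 and 0.38 to 0.48 for Egr2.

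The bases just before the transcription start of these genes are shown because CREB and SRF, which are known to control several of them, bind short sequences there. RefSeq promoters of build GRCm38.p6 are printed for 6 of the 7 genes that passed (Egr1 is not shown), each as the 200 bases before the start on the strand of the gene, 5′ to 3′. Capitals mark TGACG on either strand (CGTCA where it lies on the other strand), the half-site of the cAMP response element, and the CArG box, the site of SRF.
Fos, chr12:85473690-85473889 (+): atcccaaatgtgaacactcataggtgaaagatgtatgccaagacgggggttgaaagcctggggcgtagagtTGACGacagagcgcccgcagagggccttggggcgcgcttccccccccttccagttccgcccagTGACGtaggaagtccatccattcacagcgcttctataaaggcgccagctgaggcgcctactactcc
Junb, chr8:84978749-84978948 (-): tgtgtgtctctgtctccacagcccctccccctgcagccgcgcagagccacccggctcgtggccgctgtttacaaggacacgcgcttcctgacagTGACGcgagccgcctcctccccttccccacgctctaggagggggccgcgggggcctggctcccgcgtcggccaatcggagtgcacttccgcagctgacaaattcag
Nr4a1, chr15:101266646-101266845 (+): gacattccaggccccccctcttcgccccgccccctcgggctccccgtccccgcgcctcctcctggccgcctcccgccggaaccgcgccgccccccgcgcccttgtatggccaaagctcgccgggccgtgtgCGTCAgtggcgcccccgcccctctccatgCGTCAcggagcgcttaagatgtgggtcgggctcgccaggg
Dusp1, chr17:26508473-26508672 (-): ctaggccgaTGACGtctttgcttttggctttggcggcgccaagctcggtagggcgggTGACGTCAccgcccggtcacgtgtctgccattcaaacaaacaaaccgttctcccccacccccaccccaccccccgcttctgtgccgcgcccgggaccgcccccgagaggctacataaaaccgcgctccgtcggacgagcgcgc
Gadd45g, chr13:51846475-51846674 (+): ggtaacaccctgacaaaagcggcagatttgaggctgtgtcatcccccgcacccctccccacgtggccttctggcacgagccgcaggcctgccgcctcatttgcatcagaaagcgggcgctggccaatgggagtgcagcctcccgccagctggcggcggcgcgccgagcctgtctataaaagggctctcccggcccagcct
Egr2, chr10:67537669-67537868 (+): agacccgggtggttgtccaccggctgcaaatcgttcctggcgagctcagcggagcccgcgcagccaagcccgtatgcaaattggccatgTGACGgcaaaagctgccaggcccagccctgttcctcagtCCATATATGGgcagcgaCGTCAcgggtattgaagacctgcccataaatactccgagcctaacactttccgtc
TGACG was found on either strand in 5 of the 6 windows, against 15.8% of the 27025 promoters in the table and 24.8% of the 4540 that belong to genes tested on the arrays. Fos holds it at 129 and 66 bases before the start, Junb at 106, Nr4a1 at 69 and 40 (both on the other strand), Dusp1 at 191, 143 and 140 and Egr2 at 111 and 55. The matches of Dusp1 at 143 and 140 overlap and form the full palindrome TGACGTCA. It is held by 1.55% of all promoters and by 2.64% of those of genes tested on the arrays. Egr2 also holds a CArG box starting 72 bases before its start, as do 1.15% of all promoters; of its 5 listed starts, one of those lying close together was used. The Gadd45g window holds neither. These matches are letters in a window and say nothing of binding in these animals, and a window without a match says only that the letters are not there.

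Around the genes that passed stood a larger group that did not. The list of immediate early transcription factors had 26 of 33 genes on the array; 6 were dim and 20 were tested. Of these, 5 passed (against 0.124% of the 5659 genes tested, each by its brightest probe set), 9 were higher at an unadjusted p below 0.05 (against 4.22% of all genes) and none was lower (0.848%). Their median difference was 0.12, against 0.01 over all genes. In 8 of the 20, every FC array lay above every NH array of its own batch, as in 1.96% of all genes. The list was chosen with earlier results of these data known, so its counts describe it and are no independent evidence. Egr3, Egr4, Nr4a3, Npas4 and Srf were not named by a probe set in the annotation used here.

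Among the transcription factors that did not pass, Klf10 came nearest. Klf10, a repressor induced by TGF-beta signalling, lay at 7.08, 7.28 and 7.40 in FC and at 6.68, 6.91 and 7.13 in NH at its brighter probe set. The groups overlapped across batches but not within them. The difference was 0.35 ± 0.0894 (limma, adjusted p = 0.402), with 0.22 in batch 2 and 0.71 in batch 3, and the second Klf10 probe set gave 0.34 ± 0.0871, with 0.24 and 0.61. The single NH array of batch 3 was the lowest of all NH arrays at the brighter probe set. Fosb, the AP-1 subunit whose stable variant builds up with repeated stimulation, lay at 7.04 to 7.15 in FC and 6.86 to 7.12 in NH. Its ranges overlapped across batches, and its difference was 0.16 ± 0.0464 (limma, adjusted p = 0.569). Jun, the founding AP-1 partner of Fos, differed by 0.10 ± 0.0501, and Jund by 0.08 ± 0.0794. Atf3, Id1, Id3, Cebpd and Tiparp gave 0.08, 0.14, 0.03, 0.07 and 0.15, and Fosl2, Klf2, Klf6, Id2 and Ier3 gave -0.10, -0.03, -0.07, -0.08 and -0.02; none passed.

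Ier2, a nuclear protein of the immediate early class, lay under the brightness limit and was not tested in the fit above. Its levels were 4.32, 4.44 and 4.55 in FC and 3.82, 3.95 and 4.13 in NH. All FC arrays lay above all NH arrays although the probe set was dim. With no limit on brightness its difference was 0.38 ± 0.0637 (limma, adjusted p = 0.00674), 0.45 in batch 2 and 0.19 in batch 3. The other dim members of the list, Fosl1, Klf4, Myc, Maff and Cebpb, differed by 0.03, 0.02, -0.08, -0.04 and 0.10.

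The effectors that neurons induce with activity followed with smaller values. Of 30 such genes on the array, 21 were tested, 1 passed (Gadd45g), 8 were higher at an unadjusted p below 0.05 and none was lower, where 0.124%, 4.22% and 0.848% of all genes did so; the median was 0.09. In 5 of the 21, FC lay above NH within both batches, as in 1.96% of all genes. The median of this list was also 0.09 in CS minus NH, which uses the same NH arrays, against 0.01 over all genes. Errfi1 (Mig-6), an inhibitor of the EGF receptor, gave 0.23 ± 0.0582 and 0.19 ± 0.0557 at its dimmer and brighter probe sets, with FC levels of 6.55 to 6.75 above NH levels of 6.34 to 6.51 at the dimmer. Btg2, an antiproliferative gene that is also a target of p53, lay at 8.16 to 8.43 in FC and 7.95 to 8.14 in NH, a difference of 0.21 ± 0.0555 (limma, adjusted p = 0.461). Neither of these pairs of ranges overlapped, and neither gene passed, though Errfi1 did with its probe sets averaged (0.21, limma, adjusted p = 0.0321).

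Mcl1, a survival factor of the Bcl-2 family, differed by 0.26 ± 0.0751, with 0.16 in batch 2 and 0.51 in batch 3. Plk2, a polo-like kinase that weakens overactive synapses, differed by 0.19 ± 0.0676, with FC levels of 9.28 to 9.44 above NH levels of 8.93 to 9.26. Plat, the tissue plasminogen activator, differed by 0.17 ± 0.0590, Gadd45b by 0.18 ± 0.0568 and the kinase Pim3 by 0.11 ± 0.0530. Adjusted p-values of these genes ran from 0.586 to 0.894 (limma). Among other members of the list, the neurotrophin Bdnf gave -0.02 ± 0.0891 and the secretory granule protein Scg2 0.01 ± 0.119. The signalling regulator Rgs2 gave 0.00 ± 0.117 and the pentraxin Nptx2 0.03 ± 0.0893. Standard errors of this size do not exclude differences such as the 0.11 of Pim3. The Homer1 probe sets were dim and gave -0.05 and -0.03, and Arc was not named by a probe set in the annotation used here.

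MAP kinase phosphatases and other feedback inhibitors were split. Of 9 tested, 1 passed (Dusp1), 3 were higher at an unadjusted p below 0.05 and none was lower, against 0.124%, 4.22% and 0.848% of all genes. Their median of 0.02 was not stable, at -0.05 within batch 2, 0.20 within batch 3 and 0.14 with array weights. Dusp6 (MKP-3), which acts on ERK, lay at 6.89, 6.97 and 7.10 in FC and at 6.36, 6.59 and 6.75 in NH. All FC arrays were above all NH arrays. Its difference of 0.39 ± 0.0880 did not pass (limma, adjusted p = 0.12), but passed without CS 23139A (0.0226) and with batch as a random block (0.0313). Dusp6 passed as well with no batch term (0.00770) and with array weights (5.01e-05), where many more probe sets passed. Dusp2, Dusp8 and Spry4 gave -0.06 ± 0.0614, -0.07 ± 0.123 and -0.07 ± 0.0668. The kinases upstream were close to all genes: of 24 MAP kinase cascade genes tested none passed and 1 was higher at an unadjusted p below 0.05 (Mapk10, 0.13 ± 0.0578), with a median of 0.04.

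**Figure D3:**
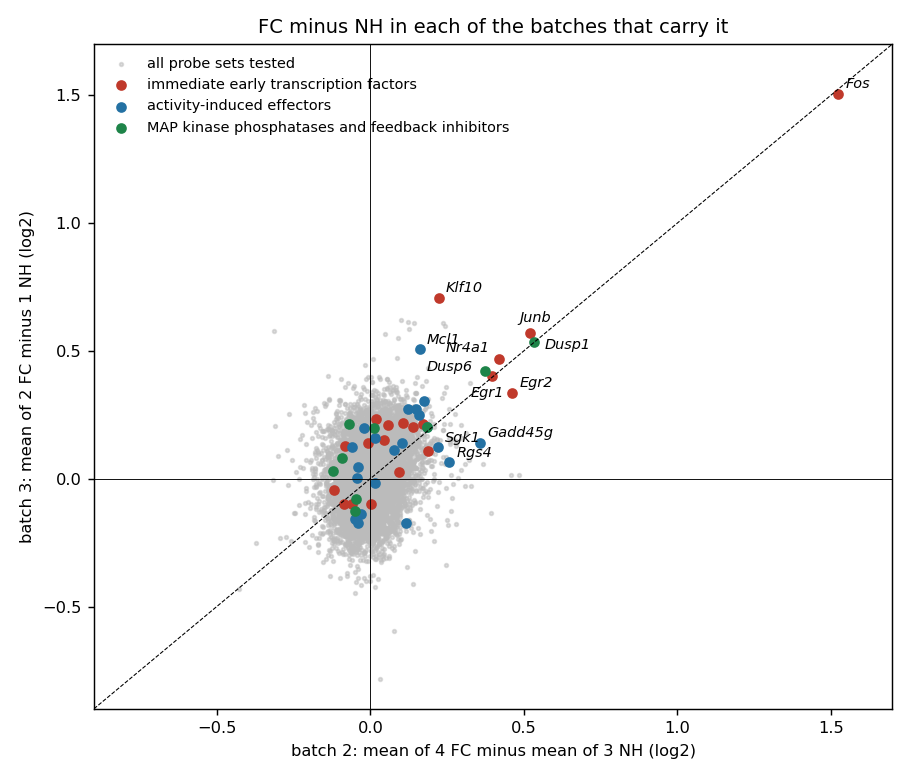
Each point is 1 probe set, with the FC minus NH difference of group means within batch 2 (4 FC and 3 NH arrays) on the horizontal axis and within batch 3 (2 FC arrays and 1 NH array) on the vertical axis, both log2; coloured points are the brightest probe sets of 3 gene lists and the dashed line marks equal values. Fos lies at 1.52 and 1.51, Junb, Dusp1, Nr4a1 and Egr1 lie near the line, Gadd45g lies below it and Klf10 above it.

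The differences in the pair of batches were also tested against each other. No probe set differed between batches 2 and 3 at an adjusted p below 0.05, and 75 (1.01%) did at an unadjusted p (limma). Batch 3 has a single NH array, so the test takes the spread of that arm from the other arms. For Fos the difference between the batches was 0.02 with a 95% interval from -0.65 to 0.68. For Gadd45g it was 0.22 (-0.03 to 0.46), and for Klf10 -0.48 (-0.85 to -0.12), with unadjusted p-values of 0.0822 and 0.0121.

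Beyond immediate early genes, the higher gene with the smallest p that did not pass was Pard6a, a scaffold of the Par polarity complex that binds atypical protein kinase C. Its levels were 6.48, 6.56 and 6.75 in FC and 6.16, 6.31 and 6.54 in NH. FC and NH overlapped across batches, where 1 NH array of batch 1 reached into the FC range, but not within batches 2 and 3. The difference was 0.28 ± 0.0586 (limma, adjusted p = 0.0775), with 0.28 in batch 2 and 0.25 in batch 3. Pard6a passed without NH 16364A (0.0421) and without CS 23139A (0.0350). It also passed with quantile normalization (0.0481), batch as a random block (0.0373) and averaged probe sets (0.0415). The same held with no batch term (0.0290) and with array weights (0.00182), where many more probe sets passed.

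Among clock genes and genes known to respond to glucocorticoids, none passed apart from Dusp1. Per1, a clock repressor that is also induced by CREB and by glucocorticoids, lay at 6.45, 6.58 and 6.81 in FC and at 6.10, 6.20 and 6.44 in NH. FC lay above NH without overlap, though narrowly, and the difference of 0.26 ± 0.0819 did not pass (limma, adjusted p = 0.79). Bhlhe40, a repressor of clock genes, gave 0.28 ± 0.101, with 0.14 in batch 2 and 0.61 in batch 3, and Per3 gave -0.13 ± 0.0583. Of 16 clock genes tested, 12 were higher, 2 were higher and 1 lower at an unadjusted p below 0.05, and the median was 0.06; over all genes 56.9% were higher, and 4.22% and 0.848% were past that p. Of 26 glucocorticoid-responsive genes 15 were higher, near the share of all genes, and Dusp1, which is also on the phosphatase list, was the one that passed. Sgk1, a kinase induced by glucocorticoids, gave 0.20 ± 0.0998 (limma, adjusted p = 0.894). The median of that list was 0.01, against 0.01 for all genes.

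Receptors, ion channels and peptides differed by small amounts, with some lists above and others below the 56.9% of all genes that were higher. None of the 19 glutamate receptor and scaffold genes was past an unadjusted p of 0.05, and their median was 0.02. Of 15 GABA genes 12 were higher (median 0.05), with Gabarapl1, an autophagy protein related to a GABA receptor partner, at 0.17 ± 0.0600. Of 23 neuropeptide genes 9 were higher and 1 was past an unadjusted p of 0.05 by its brightest probe set, Sst (somatostatin), at 0.15 ± 0.0569. Of 25 voltage-gated channel genes 13 were higher, and Kcnc1, a fast potassium channel, gave -0.17 ± 0.0838. Of 31 axon guidance and adhesion genes 9 were higher, with a median of -0.02. None of these 5 lists had a member that passed (limma, adjusted over all probe sets).

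Housekeeping lists leaned to higher values by small amounts. Of 48 respiratory chain and ATP synthase genes 40 were higher (median 0.05), of 40 proteasome and ubiquitin genes 32 (0.04) and of 17 ribosomal protein genes 15 (0.05), against 56.9% of all genes tested. At an unadjusted p below 0.05 they held 2, 2 and 1 higher genes and 1 lower gene (Atp5g1, -0.14 ± 0.0606), against 4.22% and 0.848% of all genes, and none passed. Quantile normalization lowered the medians to 0.02 for the respiratory chain, 0.01 for the proteasome and 0.02 for ribosomal proteins. The respiratory chain median was 0.02 in batch 2 and 0.12 in batch 3, where the median of all genes was 0.04. Ndufv1, a subunit of complex I, gave 0.14 ± 0.0472 and Uqcrc1, of complex III, 0.17 ± 0.0649.

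**Figure D4:**
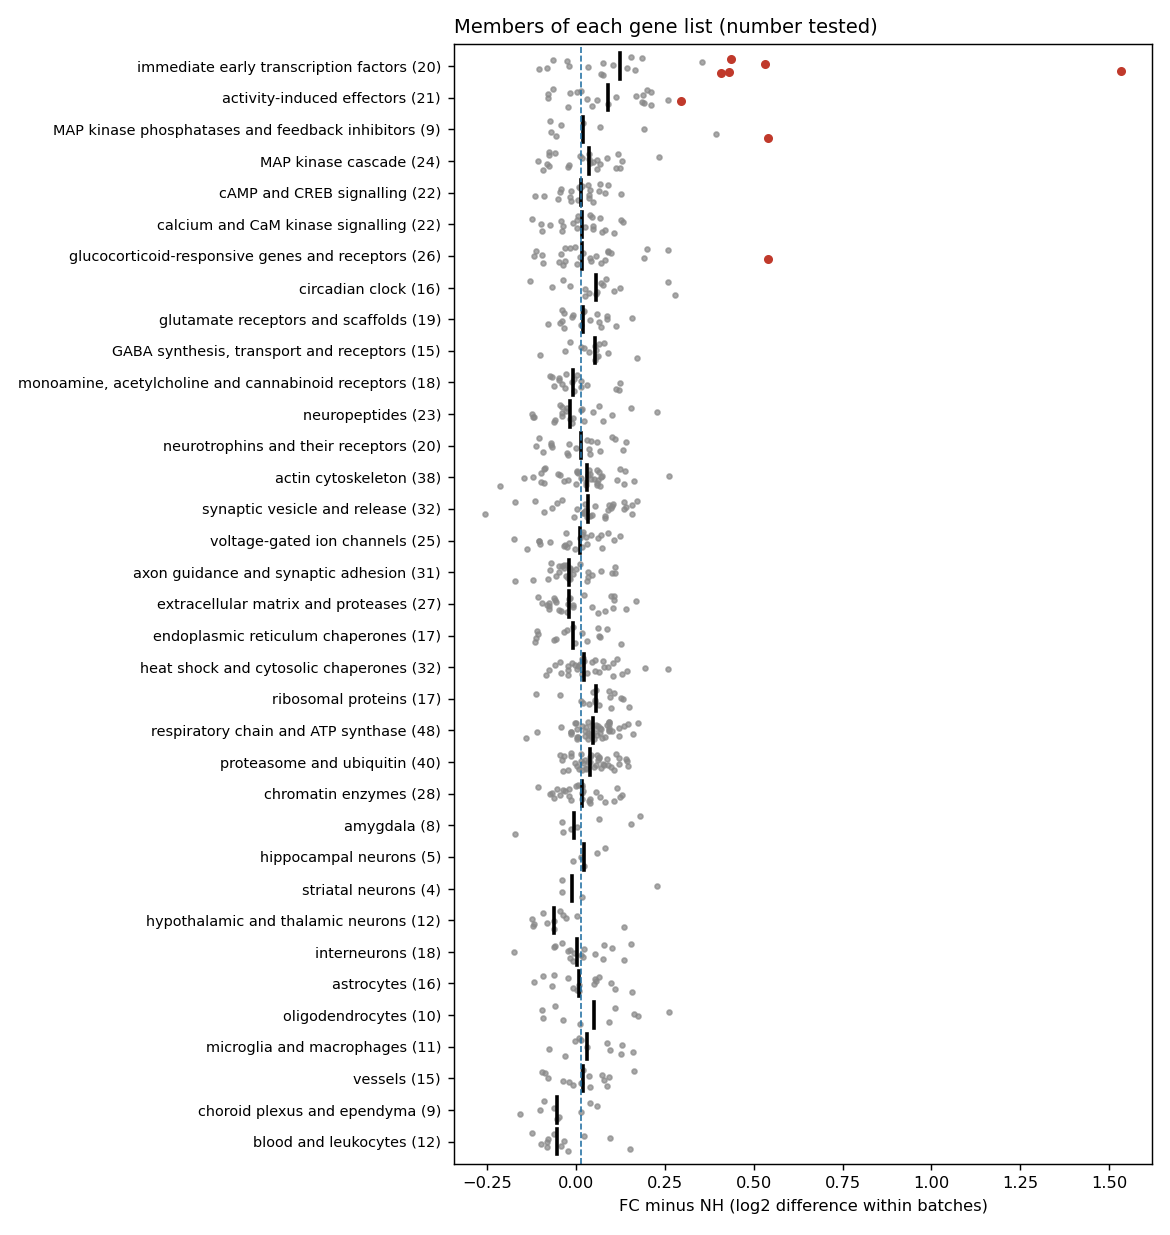
Each line of points is 1 gene list with the number of its genes tested; grey points are members (brightest probe set of a gene) by their FC minus NH difference (log2), red points passed, black bars are list medians and the dashed line is the median of all genes (0.01). The immediate early transcription factors (median 0.12) and the activity-induced effectors (0.09) have the highest medians, and the medians of the other lists lie between -0.06 and 0.06.

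Markers of other cells and regions were set beside these results. Of 10 oligodendrocyte markers 6 were higher, near the 56.9% of all genes, with a median of 0.05. The myelin genes Mobp, Mal and Mbp gave 0.26 ± 0.137, 0.17 ± 0.0735 and 0.16 ± 0.0788, while Nkx6-2 and Mag gave -0.10 ± 0.0715 and -0.09 ± 0.0820. The summed intensity of these markers ran from 2621 to 2989 in FC and from 2432 to 2857 in NH. Of 11 microglial markers 8 were higher and 3 lower, down to -0.08. At an unadjusted p below 0.05 (limma) 3 were higher and 0 lower, against 4.22% and 0.848% of all genes. Among the higher were Csf1r (0.13 ± 0.0548), C1qb (0.16 ± 0.0715) and C1qa (0.13 ± 0.0571). The probe sets of C1qb disagreed, at 0.18 and -0.21 with array weights. The sum of the microglial markers ran from 1815 to 1945 in FC and from 1663 to 1861 in NH. Of 12 hypothalamic and thalamic markers 2 were higher (median -0.06, sum 2328 to 2597 in FC and 2417 to 2636 in NH), of 9 choroid plexus markers 3 (median -0.05) and of 12 blood and leukocyte markers 3 (median -0.05). No marker passed. The NH ranges of these sums include batch 1. With NH from batches 2 and 3 only, they were 2568 to 2730 for oligodendrocytes and 1749 to 1861 for microglia. For hypothalamic and thalamic markers the range was then 2436 to 2636. The sums overlapped between the arms either way, and their part in the results above was not tested.

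The lower side of the comparison held no gene that passed, and the probe sets of most of its leading genes disagreed. Mtmr14, a phosphoinositide phosphatase, gave -0.44 ± 0.129 at one probe set and 0.04 ± 0.0612 at the other. Actb, the gene of beta-actin, gave -0.34 ± 0.115 and -0.21 ± 0.101 at its probe sets, with FC levels of 7.07 to 8.15 and NH levels of 7.75 to 8.54 at the former. Those ranges overlapped. Cdc45, a replication factor, gave -0.16 ± 0.0580 and Uba7, the activating enzyme for the ubiquitin-like ISG15, gave -0.20 ± 0.0714. The other leading probe sets, of Otub1, Krt35, Yars, Igkv9-120, Plod3 and Ube2d2a, ran from -0.21 to -0.15, and another probe set of each of these genes lay between -0.06 and 0.17.

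The CS arm, read here as the stimulus alone, was set beside FC. CS minus NH and FC minus NH share the NH arrays, so they are given side by side and not correlated. For Fos the values were 1.15 ± 0.149 in CS and 1.53 ± 0.146 in FC, for Junb 0.30 ± 0.0583 and 0.53 ± 0.0573, for Nr4a1 0.27 ± 0.0621 and 0.44 ± 0.0609 and for Dusp1 0.41 ± 0.0833 and 0.54 ± 0.0818. Egr1, Egr2 and Gadd45g gave 0.29, 0.31 and 0.20 in CS. Of these 7 genes Fos alone passed in CS minus NH (limma, adjusted p = 4.44e-04). Fos levels in CS were 6.11 to 7.05, above every NH array. The direct test of FC minus CS found no gene at an adjusted p below 0.05, with 92 probe sets (1.23%) at an unadjusted p below 0.05 and a smallest adjusted p of 0.9995 (limma).

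Among the 7 genes the FC minus CS difference was largest for Fos, at 0.38 (95% interval 0.11 to 0.66), and next for Junb, at 0.23 (0.12 to 0.34). For Junb every FC array (7.69 or above) lay above every CS array (7.44 to 7.57), with an unadjusted p of 1.81e-04. Nr4a1 differed by 0.17 (0.05 to 0.28). The intervals of Dusp1 (-0.02 to 0.28), Egr1 (-0.02 to 0.26), Egr2 (-0.03 to 0.27) and Gadd45g (-0.00 to 0.20) held 0. These intervals leave room for values near 0 and for values near 0.28. The 7 genes were chosen by high values in these same FC arrays, which tends to raise FC minus CS in them. Their FC minus CS values and p are therefore no independent evidence of a difference between FC and CS. In CS the Fos levels of batch 2 (6.43 to 7.05) lay above those of batch 3 (6.11 to 6.22), while FC showed no such gap.

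The hippocampus of the same study gave a second set of arrays, 8 FC and 10 NH, in other processing batches. Batches 4 and 6 each held 2 FC and 2 NH arrays. Batch 7 held 6 NH arrays and no other arm. Batch 5 held 4 FC and 4 CS arrays and no NH array, so it bears on FC minus NH only through CS. The amygdala and hippocampus values appear to have been normalized separately, which is read from their different medians, so only differences within a tissue are set side by side. Fos was 1.09 ± 0.147 higher in hippocampus FC, Nr4a1 0.43 ± 0.0901, Dusp1 0.38 ± 0.0818, Junb 0.34 ± 0.0808 and Egr1 0.25 ± 0.0794. Gadd45g and Egr2 gave 0.05 ± 0.0768 and 0.13 ± 0.0699. Of these genes Fos alone passed in hippocampus (limma, adjusted p = 5.31e-04).

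Some amygdala titles hold the numbers of hippocampus arrays of the same arm, so the tissues may share animals, and the test between them, which treats all arrays as independent, does not account for it. The test of amygdala against hippocampus found no gene whose FC minus NH difference passed, with 256 (3.43%) at an unadjusted p below 0.05 and a smallest adjusted p of 0.985 (limma). The amygdala exceeded the hippocampus by 0.45 for Fos (95% interval 0.00 to 0.89), 0.20 for Junb (-0.00 to 0.40), 0.30 for Egr2 (0.08 to 0.52) and 0.25 for Gadd45g (0.06 to 0.44). For Nr4a1 the difference between the tissues was 0.01 (-0.21 to 0.23). Pard6a gave -0.04 ± 0.0666 in hippocampus, where its FC levels (6.68 to 7.12) overlapped those of NH (6.74 to 7.20). Its difference between the tissues was 0.32 (0.14 to 0.50, limma, unadjusted p = 6.79e-04), and it too did not pass when adjusted. Pard6a and the 7 genes were named for their FC minus NH differences in amygdala, which are part of this test. An excess over hippocampus is thus favoured by the choice of genes, and these values are no independent evidence of one.

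**Figure D5:**
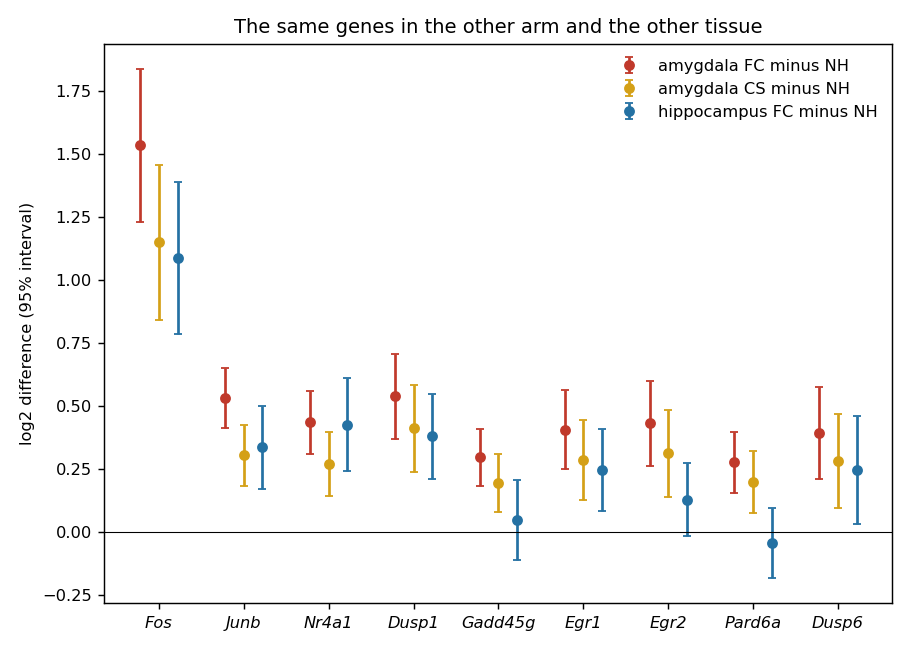
Points are log2 differences from limma with 95% intervals (bars) for 9 genes in amygdala FC minus NH (red), amygdala CS minus NH (yellow, same NH arrays) and hippocampus FC minus NH (blue). Fos is highest in all 3 comparisons, and the hippocampus intervals of Gadd45g, Egr2 and Pard6a cross 0.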

How the data were processed

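Total RNA of 22 amygdala and 26 hippocampus samples was measured on one-colour Affymetrix arrays with 12488 probe sets. The deposited values are linear intensity, 1 per probe set and array, made by the authors with RMA, per the submitters' processing notes; its version is not given in the sources used here. RMA as generally described gives arrays one distribution, which hides any shift common to most genes.

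The log2 of the intensity was taken with nothing added. The 66 control probe sets and the 40% with the lowest mean over the amygdala arrays were left out, which left 7453 (5659 genes). The platform annotation names 1 gene for 10833 probe sets, several for 396 and none for 1193; 10817 of the former matched the RefSeq gene table of GRCm38.p6. All 22 amygdala arrays were fitted with limma 3.58.1 in R 4.3.3 (lmFit, eBayes), with arm and batch, two-sided, and adjusted by Benjamini and Hochberg over all probe sets tested. The tissue test used all 48 arrays. The fit was checked on simulated data with independent normal errors. That check is no evidence for the calls made here.

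The comparison with its members and the 35 gene lists were chosen with earlier results of these data known. Named were all probe sets that passed, the 10 higher and 10 lower with the smallest p, up to 4 genes of each list and all members of the lists of transcription factors, effectors and phosphatases. A list counts each gene by its brightest probe set. The number of arrays limits precision.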

Additional observations from a re-analysis of the deposited data

Results flagged for a closer look

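Each arm's values were screened for a single array far from the rest, in 150 groups of 6 or 10 arrays; chance flags about 1 in 20 such groups, and 4 were found. Tiparp, an ADP-ribosyltransferase, was at 6.56 in FC 2103113A, while the other FC arrays lay between 6.25 and 6.36. Spred2, an inhibitor of ERK signalling, was at 5.73 in FC 21927A, the array with the largest residual spread, against 6.18 to 6.37 in the others. Plk2 was at 8.93 in NH 16768A, against 9.09 to 9.26 in the other NH arrays. Gadd45b was at 6.59 in NH 299141A, against 6.27 to 6.41. None of these genes passed in the comparison of FC with NH.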

How the results depend on the processing

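The count of 7 higher and 0 lower probe sets stayed within 1.5 times under most alternatives tried: no limit on brightness (8), 60% of probe sets left out (5), quantile normalization (8), centring of each array (7), 32 added before log2 (7), batch as a random block (10), only FC and NH arrays (5), no batch 1 arrays (6), an intensity trend with robust spread (7) and averaged probe sets (7), with 0 lower in each. It moved to 192 higher and 19 lower with no batch term, which adds the 6 NH arrays of batch 1 to the difference, and to 621 higher and 290 lower with array weights; the cause of the latter was not tested. Batch 2 alone gave 2 and batch 3 alone 1, with fewer arrays. Leaving out each array in turn gave 4 to 9, the 4 without NH 28892A. Leaving out FC 21927A and CS 23139A, chosen after seeing the data, gave 11.

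Of 7766 values of named probe sets recomputed, 33 lost a call, 124 gained one and none that had passed changed sign. With probe sets averaged, Egr1 gave 0.10 (limma, adjusted p = 0.907), since its dim probe set entered the mean. Fos was under the limit with 60% left out and with averaging. The comparisons of FC with CS, of the batches and of the tissues gave 0 under all 4 alternatives tried. Quantile normalization and centring moved the median of all differences by -0.0123 and 0.00326. No paired analysis was possible because the arms of the amygdala share no replicate numbers. Depth is not a measure here. Egr2 lay near the brightness limit, but whether this makes a call less certain was not tested. Egr1, well above the limit, and Egr2 each did not pass in 7 of the 22 fits that left out 1 array.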
